A study of Mus musculus with 12 samples.

Results

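The mitosis and spindle genes are 50 mouse genes whose products carry a cell into mitosis, build the spindle, attach and separate the chromosomes and divide the cell. They were taken by gene symbol from the deposited table, where all 50 were found among 56748 genes. Messenger RNA was sequenced from Ba/F3 cells, an interleukin-3-dependent mouse line labelled as pro-B cells, in 4 groups of 3 libraries each. The groups carried ETV6 I209S P214L-IRES-ZsGreen, ETV6 P214L-IRES-ZsGreen, wild-type ETV6-IRES-ZsGreen (ETV6 WT), or the green fluorescent protein ZsGreen alone as the control. All 4 groups, the control included, also expressed NRAS G12D, an activated form of the RAS protein NRAS. The cells were sorted into medium without interleukin-3 on day 0, given fresh medium on day 2 and harvested on day 3. The labels name no promoter for the constructs. Nothing states that libraries of the same construct were separate cultures, so the p-values measure the spread between these libraries, which may be technical. ETV6 is an ETS-family transcriptional repressor. Per the series design, P214L creates a nuclear export sequence that I209S breaks, and the question was whether cells with both changes resemble cells with wild-type ETV6.

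A cell enters mitosis when the kinase CDK1, bound to cyclin A or B, becomes active. The spindle, an array of microtubules and motor proteins, then captures each chromosome at its kinetochore. A checkpoint holds the anaphase-promoting complex, a ubiquitin ligase, until every kinetochore is attached, after which securin and cyclin B are destroyed, separase opens cohesin and the sister chromatids part. Most of these genes are transcribed in a burst late in the cell cycle. Their promoters often hold a cell cycle homology region (CHR), bound by the DREAM repressor complex in resting cells and by B-Myb and FOXM1 complexes in dividing cells, with upstream CCAAT boxes bound by NF-Y. Because of this timing, the summed level of such genes in a population is widely used as a proxy for its share of dividing cells.

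RefSeq promoter windows on GRCm38.p6, running from 250 bases before to 50 bases after a transcript start, matched 41 of the 50 members. Foxm1, Cdc25c, Spc24, Tpx2, Incenp, Aurkb, Kif20a, Ccna2 and Smc4 had no matched window. The windows of Ube2c (chr2:164769679-164769978, plus strand), Ncapg (chr5:45669675-45669974, plus strand) and Ccnb1 (chr13:100786437-100786736, minus strand) are given because these genes had the largest differences between ETV6 WT and ZsGreen libraries in their roles. Those of Kif23 (chr9:61946750-61947049, minus strand) and Pttg1 (chr11:43425932-43426231, minus strand) are given because neither gene differed detectably among the 4 groups in the test across groups. Each runs 5′ to 3′ along the gene, and capitals mark matches on either strand to the CHR letters (TTTGAA and, as the alternative, TTCGAA) and to the CCAAT box.
Ube2c: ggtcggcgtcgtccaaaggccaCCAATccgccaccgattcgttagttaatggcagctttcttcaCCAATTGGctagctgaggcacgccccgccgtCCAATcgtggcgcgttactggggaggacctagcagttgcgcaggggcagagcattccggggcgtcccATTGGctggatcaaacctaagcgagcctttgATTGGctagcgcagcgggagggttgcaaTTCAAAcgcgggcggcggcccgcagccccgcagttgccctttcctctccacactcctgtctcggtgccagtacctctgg
Ncapg: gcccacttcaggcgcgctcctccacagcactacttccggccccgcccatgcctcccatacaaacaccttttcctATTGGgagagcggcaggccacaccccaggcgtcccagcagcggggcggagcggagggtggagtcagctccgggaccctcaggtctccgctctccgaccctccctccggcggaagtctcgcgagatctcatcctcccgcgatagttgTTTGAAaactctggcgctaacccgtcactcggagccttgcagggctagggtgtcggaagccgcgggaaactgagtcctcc
Ccnb1: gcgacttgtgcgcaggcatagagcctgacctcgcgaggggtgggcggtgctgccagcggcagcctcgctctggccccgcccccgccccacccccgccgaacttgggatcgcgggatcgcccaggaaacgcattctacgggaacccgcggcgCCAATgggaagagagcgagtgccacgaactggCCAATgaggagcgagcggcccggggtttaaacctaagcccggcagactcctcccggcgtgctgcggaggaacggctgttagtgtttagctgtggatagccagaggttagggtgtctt
Kif23: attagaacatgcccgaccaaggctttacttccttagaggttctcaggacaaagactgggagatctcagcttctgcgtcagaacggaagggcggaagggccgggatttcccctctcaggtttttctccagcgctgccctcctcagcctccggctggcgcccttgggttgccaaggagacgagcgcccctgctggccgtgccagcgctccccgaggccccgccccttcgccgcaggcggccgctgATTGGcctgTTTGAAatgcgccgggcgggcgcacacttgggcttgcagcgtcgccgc
Pttg1: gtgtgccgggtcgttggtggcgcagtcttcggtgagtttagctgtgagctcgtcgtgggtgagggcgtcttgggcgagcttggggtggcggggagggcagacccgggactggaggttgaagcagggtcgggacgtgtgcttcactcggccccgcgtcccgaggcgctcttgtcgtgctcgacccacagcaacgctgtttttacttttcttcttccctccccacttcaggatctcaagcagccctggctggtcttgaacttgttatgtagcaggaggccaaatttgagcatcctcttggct

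Ube2c held 1 CHR match, beginning 29 bases before the start, and 6 CCAAT boxes, while Ncapg held 1 of each. Ccnb1 held 2 CCAAT boxes and no CHR match. Kif23 held a CCAAT box 7 bases before and a CHR match beginning at base +2. Its window thus had the same elements as those of most members. The Pttg1 window held neither. Set against other members on chr11, its matched transcript start appears to lie inside the gene as annotated on mm39. The window may therefore miss the Pttg1 promoter, and it does not show that the promoter lacks these elements.
A CHR match was present in 35 of the 44 windows of the 41 members, or 79.5%, against 14.5% of the 12396 windows of all genes tested. Within 50 bases either side of the start it was present in 31 of the 44 windows, or 70.5%, against 3.73% of all genes tested. CCAAT boxes stood in 72.7% of member windows against 37.9%, and a CHR match together with a CCAAT box in 68.2% against 6.02%. The ETS core CCGGAA, the letters that ETS-family factors such as ETV6 recognise, stood in 45.5% of member windows against 28% of all genes tested. The E2F core, searched as the letters TTGGCGC and as its variants TTCCCGC plus TTCGCGC plus TTGCCGC, stood in 25% against 16.5%. Matched bases were shared between a CHR match and a CCAAT box in Cdca8 and between a CCAAT box and an E2F core in Ccnb1 and Ect2. These matches are letters in a window and were not tested for binding.

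The members' messages were lowest with ETV6 I209S P214L and with ETV6 WT, intermediate with ETV6 P214L and highest with ZsGreen. The 50 members took 0.531 ± 0.0142% of all counts with ETV6 I209S P214L, 0.749 ± 0.0201% with ETV6 P214L, 0.567 ± 0.0258% with ETV6 WT and 0.877 ± 0.0257% with ZsGreen (SD, n = 3 each). The 3 ZsGreen libraries lay between 0.849% and 0.900%, above every other library, and the 3 ETV6 P214L libraries lay between 0.731% and 0.771%, above every ETV6 WT and ETV6 I209S P214L library. Between the ETV6 I209S P214L libraries, at 0.515% to 0.542%, and the ETV6 WT libraries, at 0.538% to 0.588%, the ranges overlapped. In bulk RNA, fewer cells in mitosis and less of these messages per cell cannot be told apart.

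**Figure D1:**
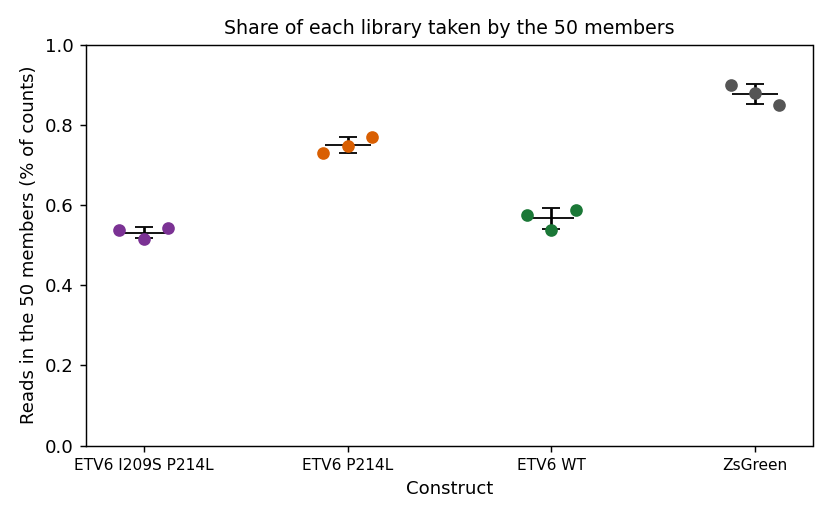
Reads assigned to the 50 members as a percent of all counts of a library (y axis), for the 4 constructs (x axis). Points are libraries, the line is the mean and the bars are the SD (n = 3 each). ZsGreen libraries lie between 0.849% and 0.900%, ETV6 P214L libraries between 0.731% and 0.771%, and the other 6 libraries at or under 0.588%.

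All 50 members passed the filter on low counts and were tested with edgeR's quasi-likelihood test, with p-values adjusted by the Benjamini-Hochberg method over 14794 genes and a gene called at an adjusted p under 0.05. Among the 4 groups, 48 members differed, where 41% of all genes tested did. The exceptions were Kif23 (adjusted p = 0.336) and Pttg1 (adjusted p = 0.132). The mean levels ran in the order ETV6 I209S P214L, ETV6 WT, ETV6 P214L, ZsGreen from low to high for 46 of the 50 members. The single highest library was a ZsGreen library for 48 members, and the single lowest an ETV6 I209S P214L library for 44. Centred on each gene's mean over the 12 libraries, the members' mean log2 level (in CPM, counts scaled to library size) was -0.36 ± 0.0368 with ETV6 I209S P214L, 0.20 ± 0.0133 with ETV6 P214L, -0.24 ± 0.0655 with ETV6 WT and 0.40 ± 0.0422 with ZsGreen (SD, n = 3 each).

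**Figure D2:**
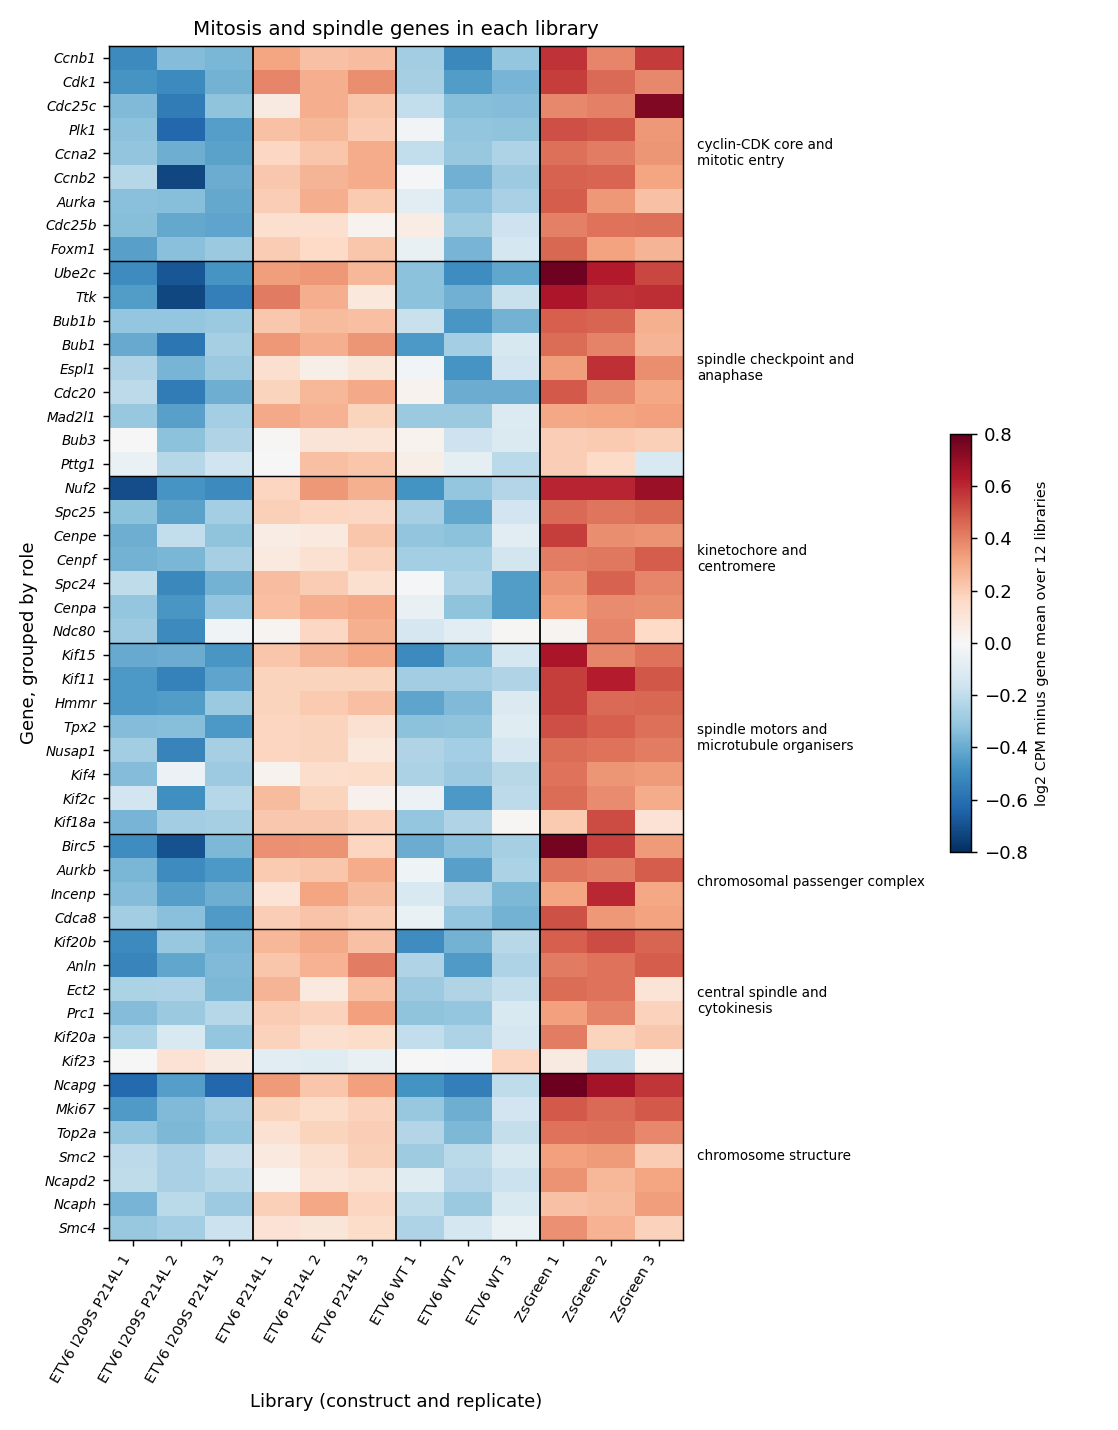
Level of each of the 50 members (rows, grouped by role) in each of the 12 libraries (columns, by construct and replicate), as log2 CPM minus the gene's mean over the 12 libraries. Colour runs over -0.8 to 0.8, with red above and blue below the gene's mean. Nearly every row runs blue, pale red, blue, red across the 4 constructs, and the row of Kif23 stays pale.

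Against ZsGreen, 48 of 50 members were called lower with ETV6 I209S P214L, 13 with ETV6 P214L and 47 with ETV6 WT, and no member was called higher in any of the 3. Of all genes tested, 20.7%, 1.61% and 18.2% were called lower in these 3 comparisons, 20.8%, 3.47% and 19.5% were called higher, and 41.5%, 5.08% and 37.7% were called in either direction. The median log2 fold change of the members was -0.77 with ETV6 I209S P214L, -0.20 with ETV6 P214L and -0.65 with ETV6 WT, where the medians of all genes tested were 0.03, 0.01 and 0.03. As a fold these medians are 0.585, 0.868 and 0.638 times the ZsGreen level. The 3 comparisons share the ZsGreen libraries. All 3 libraries of the construct lay below all 3 ZsGreen libraries for 48 members with ETV6 I209S P214L, 37 with ETV6 P214L and 48 with ETV6 WT, where 23.4%, 12.2% and 22% of all genes tested did so. Members called lower by at least a factor of 2 numbered 6 with ETV6 I209S P214L, 0 with ETV6 P214L and 2 with ETV6 WT. The share of all genes tested past this cut was not computed.
ETV6 P214L was higher than ETV6 WT for 45 members, with a median log2 fold change of 0.45, where 14.6% of all genes were called higher and 29.2% in either direction. ETV6 I209S P214L was lower than ETV6 P214L for 48 members, with a median of -0.55, where 17.1% of all genes were called lower and 33% in either direction. Libraries did not overlap, with ETV6 P214L above ETV6 WT, for 46 members and 22.4% of all genes, and with ETV6 I209S P214L below ETV6 P214L for 49 members and 24.7% of all genes. Between ETV6 I209S P214L and ETV6 WT no member was called by edgeR's quasi-likelihood test, DESeq2 or limma-voom. In that comparison 0.0338% of all genes tested, 5 genes, were called. The ETV6 I209S P214L libraries lay below all ETV6 WT libraries for 7 members and 4.38% of all genes. At an unadjusted p under 0.05 there were 6 members, or 12% of the 50, where 3.46% of all genes tested were, and the smallest adjusted p was 0.767. The log2 fold changes were negative for 47 members and positive for 3, with a median of -0.11 and a range of -0.27 (Ttk) to 0.03 (Kif4). All 50 of the 95% intervals of the difference lay within 0.5 either side of 0 on the log2 scale, from -0.50 at the lowest bound to 0.20 at the highest. A bound of 0.5 exceeds the whole change of some members with ETV6 WT against ZsGreen, such as Bub3 (-0.28). For those members the bound alone does not show equal levels.

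**Figure D3:**
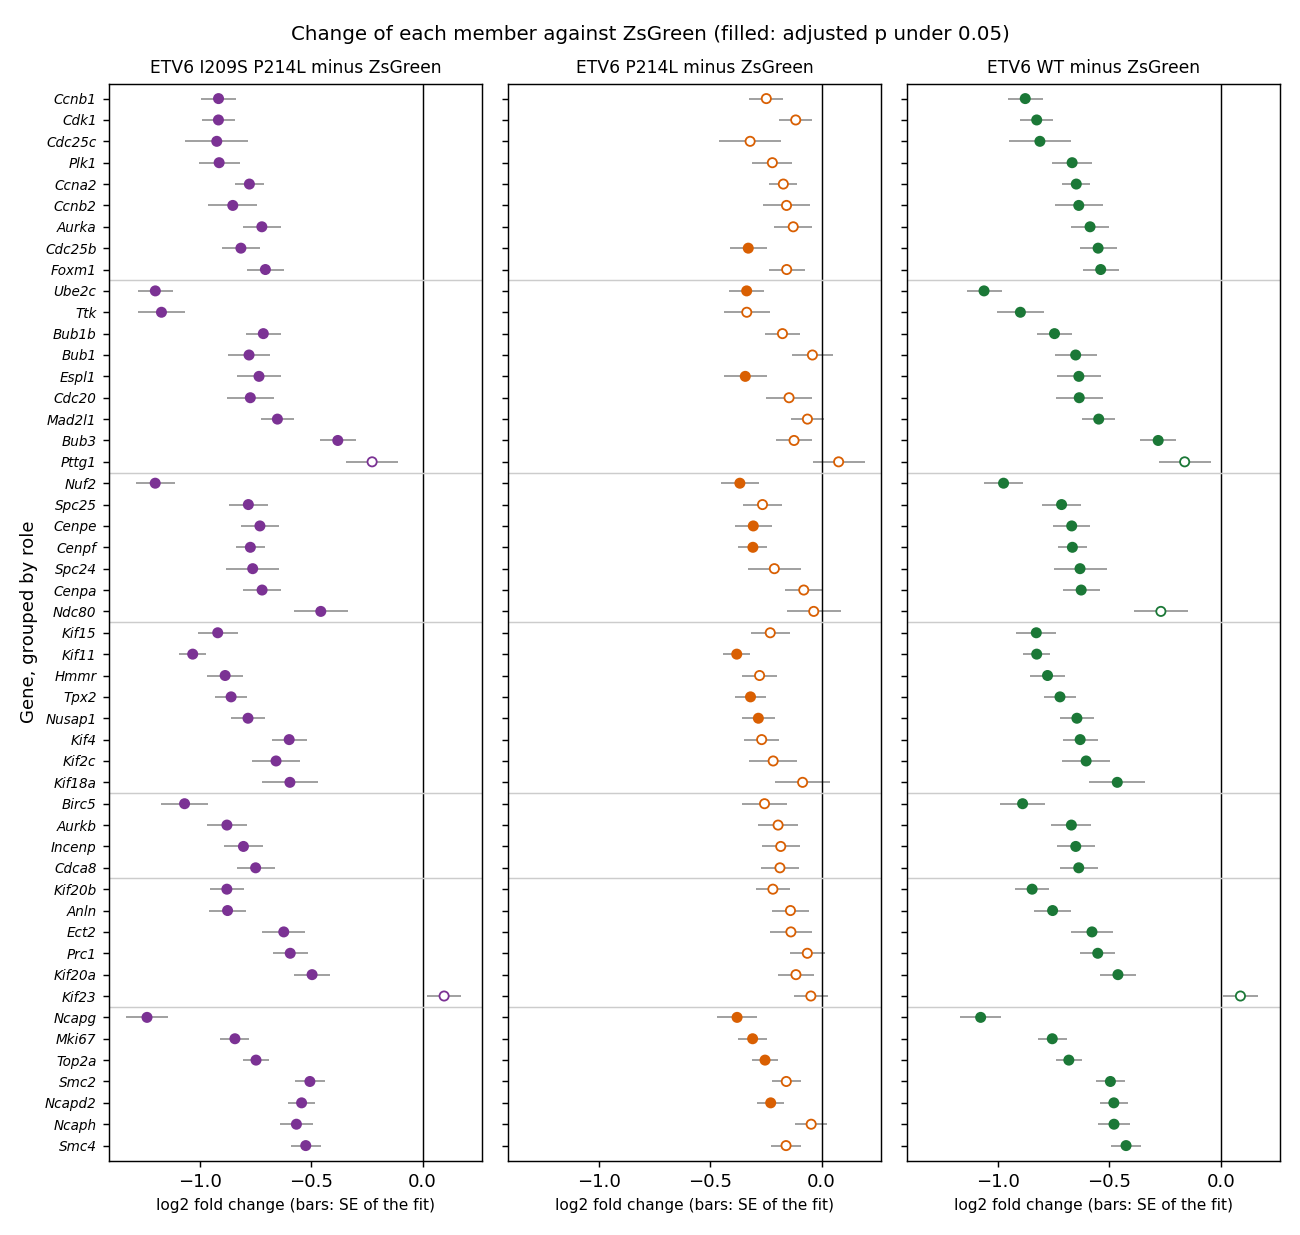
Log2 fold change of each member (rows, grouped by role) with ETV6 I209S P214L, ETV6 P214L and ETV6 WT against ZsGreen (panels). Bars are the SE of the fit and filled points had an adjusted p under 0.05. The points lie left of 0 in all 3 panels except for Kif23 with ETV6 I209S P214L and ETV6 WT and Pttg1 with ETV6 P214L, and the ETV6 P214L panel lies nearest to 0.

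The libraries held 14301683 to 18607595 counts, and the lowest count of any member in any library was 144. Counts on Etv6, which are given as 1 gene whatever their source, averaged 99.1 ± 12 CPM with ETV6 I209S P214L, 103 ± 4.64 CPM with ETV6 P214L, 109 ± 11.4 CPM with ETV6 WT and 81.7 ± 5.03 CPM with ZsGreen (SD, n = 3 each), higher than ZsGreen with all 3 constructs (adjusted p = 0.0217, 0.0433 and 0.00164 in edgeR's quasi-likelihood test). Ribosomal RNA took 1.35% to 4.70% of counts with ETV6 I209S P214L, 3.88% to 5.91% with ETV6 P214L, 1.58% to 3.64% with ETV6 WT and 2.92% to 4.89% with ZsGreen. Of 14 pro-B markers, Vpreb2, Igll1, Rag1 and Dntt had a count of 0 in all 12 libraries and Ebf1 and Pax5 were near 0, so the labelled cell type was not visible in its defining markers. The markers' summed level was 732 to 768 CPM with ETV6 I209S P214L, 444 to 489 with ETV6 P214L, 644 to 760 with ETV6 WT and 320 to 350 with ZsGreen, nearly all of it from Ptprc, the pan-leukocyte antigen CD45. The summed levels of some marker lists of other blood cells differed between the groups. The 8 mast cell and basophil markers, chiefly Gata2, summed to between 2430 and 3020, 1740 and 1770, 2400 and 3030, and 1770 and 1860 CPM in the same group order, with Kit, Fcer1a and Mcpt8 near 0. The 5 erythroid markers, chiefly the alpha-globin gene Hba-a1, summed to 271 to 393 CPM with ETV6 I209S P214L, 63 to 101 with ETV6 P214L, 259 to 357 with ETV6 WT and 89.5 to 95.5 with ZsGreen. The 9 neutrophil and monocyte markers summed to 93.1 to 135, 126 to 191, 126 to 141 and 47 to 57.7 CPM in that order, with Ly6g at 0. Within these lists the members went both ways. The neutrophil and monocyte sum with ETV6 I209S P214L and ETV6 WT came mostly from Adgre1, at means of 111 and 128 CPM against 19.7 CPM with ZsGreen, while of 7 such markers tested 5 were called lower and 1 higher with each of these constructs, and 0 lower and 4 higher with ETV6 P214L. Lyz2, which encodes lysozyme, averaged 0.376 CPM with ETV6 I209S P214L, 35.7 CPM with ETV6 P214L, 0.768 CPM with ETV6 WT and 8.73 CPM with ZsGreen. Of 5 mast cell and basophil markers tested, 1 was called lower and 2 higher with ETV6 I209S P214L, 0 and 0 with ETV6 P214L, and 2 and 2 with ETV6 WT, and Ms4a2 averaged 0.508, 3.64, 1.23 and 3.47 CPM in the same group order. Of 5 erythroid markers, 1 was called lower and 2 higher with ETV6 I209S P214L, 0 and 0 with ETV6 P214L, and 1 and 3 with ETV6 WT, and Klf1, an erythroid transcription factor gene, averaged 19.3, 40.4, 24.3 and 40.6 CPM in that order. The 7 T-lineage markers summed to at most 4.06 CPM and the 5 fibroblast markers to at most 0.503 CPM in any library. The part of these markers and of ribosomal RNA in the members' differences was not tested.

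The genes that start mitosis fell together. All 9 members of the cyclin-CDK core and mitotic entry were called lower with ETV6 I209S P214L and with ETV6 WT than with ZsGreen, with median log2 fold changes of -0.85 and -0.65. With ETV6 P214L the median was -0.17, and edgeR called 1 of the 9, the phosphatase gene Cdc25b, which lost its call without any one of the ETV6 P214L or ZsGreen libraries. DESeq2 called 3 of the 9, with Ccna2 and Ccnb1 added, and limma-voom 2, with Ccnb1 added. Ccnb1 (chr13:100915158-100923078 on mm39), encoding cyclin B1, the partner that activates CDK1, had 102, 114 and 113 CPM with ETV6 I209S P214L, 180.3, 170.5 and 172 CPM with ETV6 P214L, 119.5, 102 and 117 CPM with ETV6 WT, and 217, 190.3 and 214.1 CPM with ZsGreen. The ETV6 I209S P214L and ETV6 WT libraries overlapped each other and lay below all others, and ETV6 P214L libraries lay below all ZsGreen libraries. Ccnb1 had the largest WT difference of this role, a log2 fold change of -0.88 ± 0.0776 (SE; adjusted p = 7.95e-08), against -0.92 ± 0.0778 with ETV6 I209S P214L (adjusted p = 3.70e-08) and -0.25 ± 0.0768 with ETV6 P214L (adjusted p = 0.0722). Cdk1, the mitotic kinase itself, stood 0.71 ± 0.0742 log2 units higher with ETV6 P214L than with ETV6 WT and -0.12 ± 0.0731 from ZsGreen (adjusted p = 9.13e-07 and 0.451).
Foxm1, encoding a transcription factor that drives many of these genes, had the smallest WT difference of this role. It had 81.4, 87.4 and 89.6 CPM with ETV6 I209S P214L, 126, 123 and 128 CPM with ETV6 P214L, 106, 84.9 and 99.6 CPM with ETV6 WT, and 151, 137 and 133 CPM with ZsGreen. Its log2 fold changes against ZsGreen were -0.71, -0.16 and -0.54 with ETV6 I209S P214L, ETV6 P214L and ETV6 WT (adjusted p = 1.71e-06, 0.334 and 4.05e-05). Cdc25b, encoding a phosphatase that activates CDK1, had 55.0, 52.4 and 52.0 CPM with ETV6 I209S P214L, 76.1, 76.5 and 70.9 CPM with ETV6 P214L, 72.6, 57.1 and 62.1 CPM with ETV6 WT, and 92.0, 94.3 and 94.7 CPM with ZsGreen. Its ETV6 P214L libraries overlapped those of ETV6 WT, and it was the only member of this role not called between ETV6 P214L and ETV6 WT (0.22 ± 0.0838; adjusted p = 0.0568). Plk1 and Aurka, encoding the polo-like and aurora A kinases of spindle poles, and Ccna2, Ccnb2 and Cdc25c had log2 fold changes of -0.59 to -0.81 with ETV6 WT and -0.13 to -0.32 with ETV6 P214L against ZsGreen.

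Of the 9 genes of the spindle checkpoint and anaphase, 8 were called lower with ETV6 I209S P214L and with ETV6 WT than with ZsGreen, with medians of -0.73 and -0.64, and 2 with ETV6 P214L (median -0.15). Ube2c (chr2:164611818-164620742 on mm39), encoding the ubiquitin-conjugating enzyme that works with the anaphase-promoting complex, led the role. It had 99.7, 87.7 and 102 CPM with ETV6 I209S P214L, 178, 179 and 169.6 CPM with ETV6 P214L, 112, 100.1 and 106 CPM with ETV6 WT, and 242, 218 and 204 CPM with ZsGreen. The ETV6 P214L libraries stood between the other groups without overlap. Its log2 fold change was -1.06 ± 0.0785 with ETV6 WT against ZsGreen (adjusted p = 8.14e-09) and 0.73 ± 0.0784 for ETV6 P214L against ETV6 WT (adjusted p = 1.33e-06).
Pttg1 (chr11:43311077-43317078 on mm39), encoding securin, the separase inhibitor, differed less between the groups. It had 28.1, 24.9 and 26.1 CPM with ETV6 I209S P214L, 29.2, 34.6 and 34.0 CPM with ETV6 P214L, 30.1, 27.8 and 25.1 CPM with ETV6 WT, and 33.4, 32.4 and 26.9 CPM with ZsGreen. The ZsGreen libraries overlapped those of all 3 other groups. Pttg1 was not called by edgeR in any of the 6 comparisons, its smallest adjusted p being 0.0558 for ETV6 I209S P214L against ETV6 P214L (-0.30 ± 0.117), whose libraries did not overlap. That comparison was called lower with upper-quartile scaling, in a fit to only these groups, without the first ZsGreen, ETV6 WT and ETV6 I209S P214L libraries together, and without ETV6 P214L library 1, ETV6 WT library 1, ZsGreen library 1 or ZsGreen library 3 alone, with adjusted p-values of 0.0305 to 0.182 over all alternatives. Without ZsGreen library 3, Pttg1 was also called lower with ETV6 I209S P214L than with ZsGreen. Espl1, encoding separase, had 82.5, 75.5 and 79.5 CPM with ETV6 I209S P214L, 107, 101 and 104 CPM with ETV6 P214L, 96.2, 70.3 and 87.8 CPM with ETV6 WT, and 123, 146 and 126 CPM with ZsGreen. Every ZsGreen library exceeded every other one. Espl1 fell with all 3 ETV6 constructs, including ETV6 P214L (-0.34 ± 0.0969, adjusted p = 0.0484 in edgeR). The ETV6 P214L call was lost without any one of the ETV6 P214L or ZsGreen libraries. It was also lost without ETV6 I209S P214L library 2 or 3, or without ETV6 WT library 3. The checkpoint kinase gene Ttk changed by -1.17, -0.34 and -0.90 with ETV6 I209S P214L, ETV6 P214L and ETV6 WT, the second of which was not called (adjusted p = 0.0704). The checkpoint genes Bub1, Bub1b and Mad2l1 and the activator gene Cdc20 lay at -0.55 to -0.75 with ETV6 WT, and Bub3, which also has roles outside mitosis, at -0.28 ± 0.0795 (adjusted p = 0.00911).

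In the 7 kinetochore and centromere genes, 7 were called lower with ETV6 I209S P214L, 3 with ETV6 P214L and 6 with ETV6 WT against ZsGreen, with medians of -0.76, -0.27 and -0.67. The role holds all 4 subunits of the NDC80 complex, which binds the kinetochore to microtubules, and they did not move by the same amount. Nuf2 (chr1:169325503-169359033 on mm39) had 38.2, 45.0 and 43.9 CPM with ETV6 I209S P214L, 70.4, 79.7 and 76.3 CPM with ETV6 P214L, 44.9, 50.4 and 53.1 CPM with ETV6 WT, and 95.5, 95.6 and 101 CPM with ZsGreen. Its log2 fold changes against ZsGreen were -1.20, -0.37 and -0.98 (adjusted p = 5.96e-09, 0.0161 and 8.71e-08 with ETV6 I209S P214L, ETV6 P214L and ETV6 WT). Its partner Ndc80 (chr17:71803095-71833852 on mm39) had 37.1, 31.9 and 44.5 CPM with ETV6 I209S P214L, 46.0, 50.8 and 55.3 CPM with ETV6 P214L, 41.3, 42.6 and 45.5 CPM with ETV6 WT, and 46.0, 59.4 and 50.6 CPM with ZsGreen. Each ETV6 WT library was below each ZsGreen library, yet the difference was not called (-0.27 ± 0.121; adjusted p = 0.0913), while that of ETV6 I209S P214L was (-0.46 ± 0.122; adjusted p = 0.00545).
Cenpe, encoding the kinetochore motor that moves chromosomes to the spindle equator, had 87.1, 99.4 and 91.5 CPM with ETV6 I209S P214L, 119, 121 and 133 CPM with ETV6 P214L, 91.6, 90.8 and 107 CPM with ETV6 WT, and 167, 147 and 146 CPM with ZsGreen. Cenpf, encoding a kinetochore protein, had 106, 107 and 115 CPM with ETV6 I209S P214L, 146, 151 and 157 CPM with ETV6 P214L, 115, 114 and 125 CPM with ETV6 WT, and 184, 186 and 193 CPM with ZsGreen. Both fell with ETV6 P214L against ZsGreen, by 0.31 on the log2 scale each (adjusted p = 0.0414 and 0.00827), with no overlap of libraries. The Cenpe call was lost without ETV6 P214L library 1 or 2, any one of the ZsGreen libraries, or ETV6 I209S P214L library 3. The Cenpf call was lost without ETV6 P214L library 1. The centromeric histone gene Cenpa lay at -0.08 ± 0.0831 in that comparison (adjusted p = 0.678) and at -0.63 ± 0.0837 with ETV6 WT (adjusted p = 1.04e-05).

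All 8 genes of spindle motors and microtubule organisers were called lower with ETV6 I209S P214L and with ETV6 WT than with ZsGreen (medians -0.82 and -0.68), and 3 with ETV6 P214L (median -0.27). Kif11, encoding the kinesin Eg5 that pushes the spindle poles apart, had 136, 129 and 139.5 CPM with ETV6 I209S P214L, 211, 212 and 212 CPM with ETV6 P214L, 154, 154 and 158 CPM with ETV6 WT, and 274, 289 and 264 CPM with ZsGreen. The 4 groups did not overlap. Kif11 had the largest change of the 50 members with ETV6 P214L against ZsGreen (-0.38 ± 0.0603; adjusted p = 0.000765), beside -1.03 with ETV6 I209S P214L and -0.83 with ETV6 WT. Against ETV6 WT it was 0.21 log2 units lower with ETV6 I209S P214L, which was not called (adjusted p = 0.767).
Kif15, encoding a kinesin that shares work with Eg5, had 77.1, 77.5 and 73.9 CPM with ETV6 I209S P214L, 119, 123 and 126 CPM with ETV6 P214L, 71.7, 79.2 and 92.5 CPM with ETV6 WT, and 160.4, 134 and 138 CPM with ZsGreen. Kif18a, encoding a kinesin that limits chromosome oscillation, had 17.4, 18.6 and 18.7 CPM with ETV6 I209S P214L, 26.1, 26.2 and 25.6 CPM with ETV6 P214L, 18.1, 19.04 and 22.6 CPM with ETV6 WT, and 25.97, 32.3 and 24.4 CPM with ZsGreen. These had the largest and the smallest WT change of the role, -0.83 ± 0.0892 and -0.46 ± 0.125 (adjusted p = 8.50e-07 and 0.00655), and for Kif18a the ETV6 P214L and ZsGreen libraries overlapped.
Tpx2, encoding an activator of aurora A and of microtubule nucleation, had 132, 132 and 122 CPM with ETV6 I209S P214L, 189.5, 190.0 and 183 CPM with ETV6 P214L, 134, 134 and 157 CPM with ETV6 WT, and 240.1, 234 and 228 CPM with ZsGreen. Nusap1, encoding a microtubule-bundling protein, had 93.2, 78.1 and 94.3 CPM with ETV6 I209S P214L, 128, 128 and 120.3 CPM with ETV6 P214L, 95.9, 93.7 and 103 CPM with ETV6 WT, and 154, 153 and 150.4 CPM with ZsGreen. Both fell with ETV6 P214L against ZsGreen (-0.32 and -0.28; adjusted p = 0.0104 and 0.0348), and Hmmr and Kif4 narrowly missed the threshold there (adjusted p = 0.0526 and 0.0547).

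The 4 subunits of the chromosomal passenger complex, the aurora B kinase assembly that corrects faulty attachments, moved together. All 4 were called lower with ETV6 I209S P214L and with ETV6 WT than with ZsGreen (medians -0.84 and -0.66) and higher with ETV6 P214L than with ETV6 WT (median 0.47), and for ETV6 P214L against ZsGreen edgeR, DESeq2 and limma-voom called 0, with log2 fold changes of -0.18 to -0.26 and an unadjusted p under 0.05 in edgeR for all 4. Birc5, encoding survivin, had 64.0, 55.6 and 70.2 CPM with ETV6 I209S P214L, 116, 116 and 102 CPM with ETV6 P214L, 68.5, 71.6 and 74.9 CPM with ETV6 WT, and 153, 132 and 114 CPM with ZsGreen. Cdca8, encoding borealin, had 94.3, 90.6 and 83.5 CPM with ETV6 I209S P214L, 131, 134 and 132 CPM with ETV6 P214L, 110.2, 92.3 and 87.8 CPM with ETV6 WT, and 163, 145 and 143 CPM with ZsGreen. For Birc5 the lowest ZsGreen library fell inside the ETV6 P214L range, and for Cdca8 it did not. Their WT changes were -0.89 ± 0.103 and -0.64 ± 0.0847 (adjusted p = 1.96e-06 and 9.68e-06), with Aurkb, the kinase gene, at -0.67 and Incenp, the scaffold gene, at -0.65.

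Among the 6 genes of the central spindle and cytokinesis, 5 were called lower with ETV6 I209S P214L and with ETV6 WT than with ZsGreen (medians -0.61 and -0.57), and 0 of 6 with ETV6 P214L (median -0.13). At an unadjusted p under 0.05, edgeR had 1 of the 6 there, and DESeq2 and limma-voom called 0. Kif20b, encoding a kinesin of late cytokinesis, had 95.1, 109.8 and 105 CPM with ETV6 I209S P214L, 163, 167 and 159.7 CPM with ETV6 P214L, 96.2, 104 and 116 CPM with ETV6 WT, and 188, 194 and 188 CPM with ZsGreen, a log2 fold change of -0.85 ± 0.0757 with ETV6 WT against ZsGreen (adjusted p = 9.05e-08). Anln, Ect2, Prc1 and Kif20a, encoding anillin, the activator of RhoA at the cleavage plane, the bundler of midzone microtubules and a midzone kinesin, lay at -0.76, -0.58, -0.55 and -0.46.
Kif23 (chr9:61823187-61854056 on mm39), encoding the kinesin MKLP1 of the centralspindlin complex, stood apart. It had 121, 131 and 127 CPM with ETV6 I209S P214L, 114, 113 and 116 CPM with ETV6 P214L, 121, 119.5 and 136 CPM with ETV6 WT, and 127, 106 and 122 CPM with ZsGreen. The ZsGreen libraries overlapped those of every other group. All ETV6 P214L libraries lay below all ETV6 WT and ETV6 I209S P214L libraries, the reverse of most members. Kif23 had its lowest group mean with ETV6 P214L and its highest with ETV6 I209S P214L. It was not called in any of the 6 comparisons: the log2 fold changes were 0.09 ± 0.0768 with ETV6 WT against ZsGreen (adjusted p = 0.400) and 0.15 ± 0.0771 for ETV6 I209S P214L against ETV6 P214L (adjusted p = 0.169).

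The 7 genes of chromosome structure were all called lower with ETV6 I209S P214L and with ETV6 WT than with ZsGreen (medians -0.57 and -0.50), and 4 with ETV6 P214L (median -0.23). Ncapg (chr5:45827261-45857888 on mm39), encoding a subunit of condensin I, the complex that compacts mitotic chromosomes, had the largest change of all 50 members. It had 47.5, 53.8 and 47.3 CPM with ETV6 I209S P214L, 92.5, 85.0 and 91.7 CPM with ETV6 P214L, 52.3, 50.04 and 63.4 CPM with ETV6 WT, and 126, 116 and 109 CPM with ZsGreen. The ETV6 P214L libraries lay between the others without overlap. The log2 fold changes against ZsGreen were -1.24 ± 0.0935, -0.38 ± 0.0911 and -1.08 ± 0.0927 with ETV6 I209S P214L, ETV6 P214L and ETV6 WT (adjusted p = 8.76e-09, 0.0194 and 5.64e-08).
Smc4, encoding a condensin ATPase, had 210.5, 215 and 230.4 CPM with ETV6 I209S P214L, 281, 278 and 287 CPM with ETV6 P214L, 218, 235 and 249.7 CPM with ETV6 WT, and 334, 314 and 295 CPM with ZsGreen. Ncapd2, encoding another condensin I subunit, had 227, 217 and 223 CPM with ETV6 I209S P214L, 263, 282 and 284 CPM with ETV6 P214L, 244, 222 and 232 CPM with ETV6 WT, and 335, 314 and 324 CPM with ZsGreen. The groups kept the same order, but Smc4 changed by -0.43 ± 0.0681 and Ncapd2 by -0.48 ± 0.0615 with ETV6 WT against ZsGreen (adjusted p = 7.29e-05 and 6.47e-06).
Mki67, encoding the chromosome-coating protein Ki-67 used as a proliferation marker, had 556, 598 and 622 CPM with ETV6 I209S P214L, 861, 844 and 864 CPM with ETV6 P214L, 619, 581 and 686 CPM with ETV6 WT, and 1072, 1042 and 1073 CPM with ZsGreen. Top2a, encoding topoisomerase II alpha, which untangles sister DNA, had 671, 648 and 671 CPM with ETV6 I209S P214L, 906, 942 and 954 CPM with ETV6 P214L, 706, 649.5 and 728 CPM with ETV6 WT, and 1126, 1131 and 1086 CPM with ZsGreen. Both fell with ETV6 P214L against ZsGreen, with log2 fold changes of -0.31 and -0.25 and no overlap of libraries (adjusted p = 0.00768 and 0.0123).

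Subunits of the same complex differed in how far they changed. Their levels were compared on the authors' FPKM values, a level scaled to transcript length and library size. These 4 ratios were chosen after the values were seen, and have no test. The log2 ratio of Ncapg to the other 4 condensin I subunits, averaged as log2 values, was -2.01 ± 0.115 with ETV6 I209S P214L, -1.54 ± 0.0936 with ETV6 P214L, -1.93 ± 0.125 with ETV6 WT and -1.31 ± 0.0740 with ZsGreen (SD, n = 3 each). The log2 ratio of Nuf2 to Ndc80 was 0.21 ± 0.283, 0.61 ± 0.0988, 0.23 ± 0.0650 and 0.95 ± 0.197 in the same order. The log2 ratio of Kif23 to its partner Racgap1, which is no member, was -0.54 ± 0.0594, -1.12 ± 0.0563, -0.66 ± 0.137 and -1.36 ± 0.126 in that order. In the ratios with Ncapg and with Kif23, the ETV6 P214L libraries lay between those of ZsGreen and those of the other 2 constructs. The log2 ratio of Ccnb1 to Ccnb2, the alternative B cyclin, did not separate the groups, at -1.34 ± 0.331, -1.38 ± 0.0838, -1.52 ± 0.128 and -1.29 ± 0.160. Racgap1 fell to 164 ± 2.56 CPM with ETV6 I209S P214L, 222 ± 8.96 CPM with ETV6 P214L and 179 ± 15.5 CPM with ETV6 WT, against 271 ± 16.5 CPM with ZsGreen (adjusted p = 2.60e-07, 0.0247 and 2.77e-06).

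**Figure D4:**
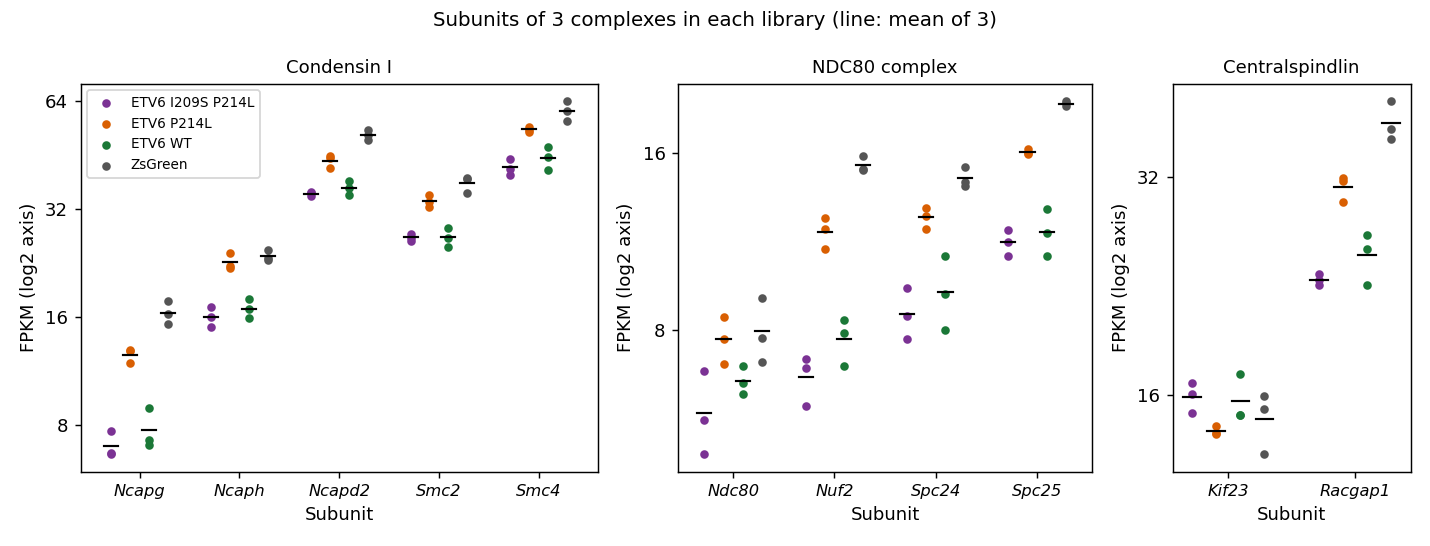
FPKM (y axis, log2 scale) of the subunits of condensin I, the NDC80 complex and centralspindlin (x axes) in each library, coloured by construct, with a line at the mean of 3. Ncapg spreads further between constructs than the other condensin I subunits, Nuf2 further than Ndc80, and Racgap1 further than Kif23. For Kif23 the ZsGreen libraries overlap those of every other construct, while the ETV6 P214L libraries lie below those of ETV6 WT and ETV6 I209S P214L. Racgap1 is not among the 50 members.

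The residual difference between ETV6 P214L and ZsGreen was small and spread over several roles. The 13 members called lower were Cdc25b, Cenpe, Cenpf, Espl1, Kif11, Mki67, Ncapd2, Ncapg, Nuf2, Nusap1, Top2a, Tpx2 and Ube2c, and 49 of 50 log2 fold changes were negative, down to -0.38. At an adjusted p under 0.1 there were 18 members, where 8.29% of all genes tested were, and at an unadjusted p under 0.05 there were 30, where 17.9% were. DESeq2 called 19 members and limma-voom 17, where 1188 and 816 of all genes were called, against 751 with edgeR's quasi-likelihood test. The number of members called depended on single libraries: it was 3, 7 and 5 without ETV6 P214L library 1, 2 and 3. It was 6, 9 and 7 without ZsGreen library 1, 2 and 3. The number called over all genes fell as well, to 377, 478, 402, 527, 682 and 625 in the same order. Kif11 and Mki67 were called whichever library was left out, and Cdc25b, Espl1, Ncapd2 and Nusap1 were not called without any one of the 6 libraries compared. Leaving out ETV6 I209S P214L library 3, which is outside this pair, also lost the calls of Cenpe, Espl1 and Ncapd2. The median over members stayed between -0.23 and -0.17 when each library was left out in turn. In the authors' deposited table, 23 members were called for this pair, all higher in ZsGreen. For the other 5 pairs the authors' deposited table called 48 (ETV6 I209S P214L and ZsGreen), 47 (ETV6 WT and ZsGreen), 45 (ETV6 P214L and ETV6 WT), 0 (ETV6 I209S P214L and ETV6 WT) and 48 (ETV6 I209S P214L and ETV6 P214L).

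The comparisons of ETV6 I209S P214L against ETV6 P214L and of ETV6 WT against ZsGreen share no library, and their values can be set side by side. Other pairs of comparisons that share no library were not set side by side. Across the 50 members the log2 fold changes had a Pearson's r of 0.857 and a Spearman's rho of 0.764, as a description across genes, which are not independent replicates. Pearson's r was 0.804 without Kif23 and 0.793 without Kif23 and Pttg1. The change was smaller in size in ETV6 I209S P214L against ETV6 P214L for 37 members. Ncapg and Ube2c were largest in both, with log2 fold changes of -0.86 and -0.86 for ETV6 I209S P214L against ETV6 P214L and of -1.08 and -1.06 for ETV6 WT against ZsGreen. Cdk1 changed nearly equally, by -0.80 and -0.83.

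**Figure D5:**
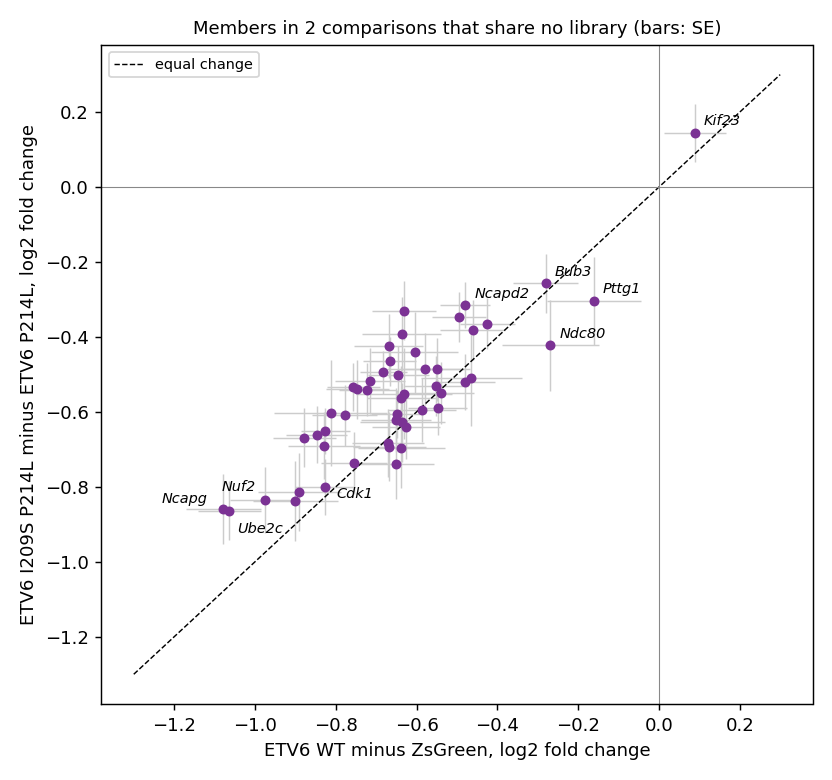
Log2 fold change of each of the 50 members for ETV6 I209S P214L against ETV6 P214L (y axis) and for ETV6 WT against ZsGreen (x axis), with bars for the SE of each and a dashed line of equal change. Most points lie above the line, nearer to 0 on the y axis, and Kif23 lies alone above 0 on both axes.

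Most other genes of mitosis, taken from pathway lists, were also lower with ETV6 I209S P214L and ETV6 WT. Of 34 further kinetochore and centromere genes tested, 29 were called lower with ETV6 I209S P214L, 1 with ETV6 P214L and 25 with ETV6 WT against ZsGreen, and of 31 further spindle and cytokinesis genes 24, 1 and 21 were. The kinetochore AAA ATPase gene Trip13 fell to 13.3 ± 0.923 CPM with ETV6 I209S P214L and 14.4 ± 2.15 CPM with ETV6 WT, against 28.8 ± 2.82 CPM with ZsGreen, and averaged 24.4 ± 1.65 CPM with ETV6 P214L (SD, n = 3 each). Against this trend, Zwint, encoding a kinetochore scaffold protein, rose to 169 ± 8.67 CPM with ETV6 I209S P214L and 166 ± 0.631 CPM with ETV6 WT, against 117 ± 6.05 CPM with ZsGreen (adjusted p = 4.61e-06 and 8.97e-06), and averaged 112 ± 5.30 CPM with ETV6 P214L (adjusted p = 0.698). Numa1, encoding the spindle pole protein NuMA, rose likewise by 0.39 and 0.32 on the log2 scale with ETV6 I209S P214L and ETV6 WT (adjusted p = 5.49e-05 and 0.000506). All 3 condensin II subunits tested were called lower with ETV6 I209S P214L and ETV6 WT, and 0 with ETV6 P214L, where 2 had an unadjusted p under 0.05 and DESeq2 and limma-voom called 1 each.
Genes of the anaphase-promoting complex and its coactivators, and of cohesin and its regulators, were called in part, in both directions. Of the 17 genes of the anaphase-promoting complex and its coactivators, 9 were called lower and 1 higher with ETV6 I209S P214L against ZsGreen. With ETV6 P214L 2 and 0 were called, and with ETV6 WT 8 and 1. The medians were -0.22, -0.06 and -0.19 in that order. Of the 14 genes of cohesin and its regulators, 8 were called lower and 2 higher with ETV6 I209S P214L. With ETV6 P214L 1 and 0 were called, and with ETV6 WT 8 and 2. Of 9 tubulins tested, 4 were called lower and 2 higher with ETV6 I209S P214L, 1 and 0 with ETV6 P214L, and 3 and 1 with ETV6 WT. The shares of all genes tested that were called higher in these comparisons were 20.8%, 3.47% and 19.5%, so the counts called higher were near or below them.
Of 12 other mitotic entry regulators, 9 were called lower with ETV6 I209S P214L, 0 with ETV6 P214L and 7 with ETV6 WT. With ETV6 P214L, DESeq2 and limma-voom also called 0 of the 12, and 0 had an unadjusted p under 0.05 in edgeR. Among 18 DREAM, B-Myb and E2F factors, which control such promoters, 11 were called lower and 1 higher with ETV6 I209S P214L, 1 and 0 with ETV6 P214L, and 10 and 2 with ETV6 WT. Mybl2, encoding B-Myb, had 51.4 ± 3.67 CPM with ETV6 I209S P214L, 99.2 ± 2.36 CPM with ETV6 P214L, 58.3 ± 6.27 CPM with ETV6 WT and 107.5 ± 8.39 CPM with ZsGreen (SD, n = 3 each). Rb1, encoding the retinoblastoma protein, ran the other way, with 150.2 ± 4.24, 95.7 ± 5.80, 147 ± 6.16 and 97.5 ± 2.21 CPM in the same order. Both were called with ETV6 I209S P214L and ETV6 WT and not with ETV6 P214L against ZsGreen (adjusted p = 0.530 and 0.891 with ETV6 P214L).
Genes of the preceding phase fell as well: of 16 replication licensing and S phase genes, 15 were called lower with ETV6 I209S P214L, 3 with ETV6 P214L and 15 with ETV6 WT, with medians of -0.74, -0.20 and -0.67. Mcm2, encoding a subunit of the replicative helicase, fell to 188 ± 9.61 CPM with ETV6 I209S P214L, 265 ± 12.8 CPM with ETV6 P214L and 188 ± 11.7 CPM with ETV6 WT, against 317 ± 13.8 CPM with ZsGreen. Of 8 cycle exit genes tested, 3 were called higher with each ETV6 construct. With ETV6 I209S P214L, ETV6 P214L and ETV6 WT, 3, 0 and 1 were called lower. Of all genes tested, 20.8%, 3.47% and 19.5% were called higher and 20.7%, 1.61% and 18.2% lower. The genes named next were called higher in at least 1 comparison, and those called lower are not named. The medians of the 8 were 0.11, 0.13 and 0.06 with ETV6 I209S P214L, ETV6 P214L and ETV6 WT. The antiproliferative gene Btg1 rose to 259 ± 5.78, 114 ± 5.08 and 248 ± 7.99 CPM with these constructs, against 79.4 ± 7.07 CPM with ZsGreen (adjusted p = 4.20e-12, 0.000167 and 8.86e-12). Cdkn1b, encoding the CDK inhibitor p27, rose by 0.67 and 0.68 on the log2 scale with ETV6 I209S P214L and ETV6 WT (adjusted p = 2.56e-06 and 2.65e-06) and stood at 0.19 with ETV6 P214L (adjusted p = 0.221). Cdkn1a, encoding p21, rose with ETV6 P214L alone of the 3 against ZsGreen (0.35; adjusted p = 0.0121), beside 0.04 and -0.00 with ETV6 I209S P214L and ETV6 WT, and was also higher with ETV6 P214L than with ETV6 WT (0.35; adjusted p = 0.00219). In ETV6 I209S P214L against ETV6 WT, 0 of the 162 genes tested in these 10 lists were called by edgeR's quasi-likelihood test, DESeq2 or limma-voom, and 14, or 8.64%, had an unadjusted p under 0.05 in edgeR, where 3.46% of all genes tested did.

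The counts of 9 members, Ccna2, Cdc20, Cdca8, Kif18a, Kif20a, Kif4, Ncapg, Nusap1 and Prc1, come from loci where a gene on the opposite strand overlaps and holds at least 10% as many counts. The share was 93.3% for Cdc23 over Kif20a, 45.3% for Elovl1 over Cdc20, 38.3% for Pdzd11 over Kif4 and 33.8% for Lcorl over Ncapg. The sources used here do not say whether counting used strand, so reads of such pairs may not be told apart. FPKM levels with ZsGreen ran from 2.79 (Kif18a) to 123 (Top2a), with a median of 24.6, and the median coefficient of variation of a member within a group was between 3.56% and 8.46%.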

How the data were processed

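The 50 members were chosen by gene symbol, and they and the pathway lists were chosen with earlier results of these data known. Per the labels' protocols, messenger RNA was selected with poly-T beads. Per the submitters' processing notes, reads were handled with HISAT2 2.0.5 and featureCounts 1.5.0-p3 on mm39; the annotation release and the authors' test are not given in the sources used here. The table the authors deposited holds raw counts per gene and FPKM per library. It also holds the authors' group means, not used, and log2 fold changes and p-values per pair, which run from the first-named group over the second.

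Counts of all 12 libraries were fitted together in edgeR 4.0.16 (R 4.3.3) with TMM scaling and the default expression filter, leaving 14794 genes, and tested by quasi-likelihood with Benjamini-Hochberg adjustment. CPM are TMM-scaled, except that the marker sums use library totals. SE values are of the fit. DESeq2 1.42.0 and limma-voom (limma 3.58.1) were alternatives. The test was checked on simulated data. No library pair within a group agreed within sampling noise, and no batch is given. Genes described per library were, in each role, those with the largest and smallest change with ETV6 WT against ZsGreen, those called with ETV6 P214L against ZsGreen and those not called lower with ETV6 WT.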

Additional observations from a re-analysis of the deposited data

How the results depend on the processing

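No member that was called changed direction under other scalings (relative log expression, upper quartile, library totals), DESeq2, limma-voom, no filter on low counts, a fit to only the groups compared, or without the first ZsGreen, ETV6 WT and ETV6 I209S P214L libraries. Over these settings the number of members called stayed within 1.5 times the reported one in each comparison, 12 to 19 for ETV6 P214L against ZsGreen. Leaving out each library in turn gave 48 to 49 members called for ETV6 I209S P214L against ZsGreen, 3 to 16 for ETV6 P214L against ZsGreen, 47 to 48 for ETV6 WT against ZsGreen, 41 to 46 for ETV6 P214L against ETV6 WT, 0 to 0 for ETV6 I209S P214L against ETV6 WT and 46 to 49 for ETV6 I209S P214L against ETV6 P214L. The corresponding medians lay between -0.79 and -0.73, -0.23 and -0.17, -0.71 and -0.62, 0.41 and 0.46, -0.14 and -0.07, and -0.57 and -0.54. The value of -0.71 came without ETV6 WT library 1. The cause was not tested beyond there being fewer samples. For ETV6 P214L against ZsGreen, the number called over all genes also moved when each library was left out, between 377 and 978.

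Replicate numbers did not pair the libraries throughout: same-number correlations of deviations from the group means ran from -0.061 to 0.528. The correlations of a comparison were not all over 0.1. The highest, 0.528, was between the first libraries of ETV6 WT and ETV6 I209S P214L. These 2 libraries also had the lowest ribosomal RNA of their groups, at 1.58% and 1.35%. Between ETV6 WT and ZsGreen each library correlated best with its own number, but only at 0.0307 to 0.09. The cause of these shared deviations was not tested. With the number as a replicate block, 48, 15, 47, 46, 0 and 48 members were called in the order above. Precision is limited by 3 libraries a group.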
